A study of Mus musculus with 6 samples.

Results

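Blastocysts flushed from *Lif* eKO uteri after injection of recombinant Lif (rLif) were compared with blastocysts flushed from untreated *Lif* eKO uteri. Each side was 1 pooled library. A gene entered the comparison when it had at least 10 counts summed over the 3 embryo libraries, which kept 14873 of the 23420 genes in the embryo table. The remaining embryo library, from control uteri, entered the filter and the scaling and is given beside each value.

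Control uteri came from Lif-floxed/floxed females without Cre. *Lif* eKO uteri were Lif-floxed/floxed Ltf-Cre/+, so that *Lif* was deleted where the *Ltf* promoter drives iCre, in the uterine epithelium, while stromal *Lif* remained. The treated *Lif* eKO females were injected with 20 µg of rLif per head on day 4 of pregnancy, first at 10 am and again at 6 pm, and the other 2 groups are labelled PBS. Blastocysts were flushed at 8 pm on day 4, 2 h after the last injection. All 3 embryo pools carry the same embryonic genotype label, Lif-floxed/+, so the embryos differed in their mothers' genotype and treatment and not in their own label. Each pool held blastocysts of several females, and neither the spread between females nor that between embryos could be estimated. The luminal layer of the uterus was sequenced from the same 3 conditions, 1 library each.

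Lif signals through a receptor made of Lifr and gp130, the product of *Il6st*. Jak kinases on this receptor phosphorylate Stat3, which then activates its targets, among them *Socs3*, an inhibitor of the same kinases. In cultured mouse embryonic stem cells this pathway maintains pluripotency. The blastocyst at this stage consists of the outer trophectoderm, which will attach to the uterus, and an inner cell mass that separates into epiblast and primitive endoderm.

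Promoters are shown for a gene of each of 3 groups described below. Each line holds the 250 bases before the RefSeq start (build GRCm38.p6), 5′ to 3′ on the gene's strand, with matches to 1 motif in capitals. *Cxcl2*, with 0 counts in the rLif-treated library, lies at chr5:90903649-90903898 (plus strand) and a short NF-kB form, GGNNTTTCC, is marked. *Ldha*, an abundant glycolytic gene that was lower, lies at chr7:46845554-46845803 (plus strand) and the hypoxia response core ACGTG is marked. *Socs3*, the feedback gene of the Lif pathway, lies at chr11:117969367-117969616 (minus strand) and the Stat form TTCNNNGAA is marked.
Cxcl2: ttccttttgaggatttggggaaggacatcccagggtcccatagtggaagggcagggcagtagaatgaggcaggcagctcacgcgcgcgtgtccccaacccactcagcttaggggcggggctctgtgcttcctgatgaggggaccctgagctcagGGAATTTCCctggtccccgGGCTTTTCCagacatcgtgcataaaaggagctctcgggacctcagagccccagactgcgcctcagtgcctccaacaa
Ldha: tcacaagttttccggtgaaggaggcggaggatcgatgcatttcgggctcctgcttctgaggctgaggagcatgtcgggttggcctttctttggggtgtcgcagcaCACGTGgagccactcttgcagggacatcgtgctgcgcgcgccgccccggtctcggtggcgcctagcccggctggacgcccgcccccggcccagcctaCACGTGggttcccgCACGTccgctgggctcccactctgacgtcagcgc
Socs3: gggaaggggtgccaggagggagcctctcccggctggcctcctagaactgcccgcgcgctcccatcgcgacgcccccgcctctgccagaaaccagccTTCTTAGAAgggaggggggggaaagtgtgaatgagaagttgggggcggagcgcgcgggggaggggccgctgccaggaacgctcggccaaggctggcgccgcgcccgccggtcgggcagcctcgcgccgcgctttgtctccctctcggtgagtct
The motifs were chosen with the calls known. Both strands were searched, and in *Ldha* matches on opposite strands overlap. The *Cxcl2* window held 2 matches, the *Ldha* window 5 and the *Socs3* window 1. A start was matched for 10870 of the 14873 genes. The NF-kB form was found before 25 of 298 genes called lower (8.39%), 6 of 93 called higher (6.45%) and 575 of all 10870 (5.29%). The hypoxia core was found before 54 of the 298 genes called lower (18.1%), 12 called higher (12.9%) and 2301 of all (21.2%). The Stat form was found before 18 genes called lower (6.04%), 5 called higher (5.38%) and 637 of all (5.86%). These shares describe letters in a fixed window and not binding.

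Most transcripts of the blastocyst were at a similar level in both libraries, and the genes that stood apart were mostly rare and mostly lower after rLif. A gene was called higher when the whole exact 95% Clopper-Pearson interval of its count ratio exceeded 1 on the log2 scale, and lower when the whole interval was under -1. This interval covers the counting error of reads only, and a call compares 2 libraries rather than 2 conditions. Reads without molecular identifiers are not independent molecules, so the interval may be too narrow even for counting error. By this rule 557 genes were called (3.75% of those tested). Of these, 136 were higher (0.914%) and 421 lower (2.83%) with rLif, so 75.6% of calls were lower. The median log2 ratio over all 14873 genes was -0.01.

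The calls were spread unevenly over abundance. Genes were split into 3 equal classes by mean CPM (counts scaled to a common library size) over the 2 libraries. The rarest class, up to 4.36 CPM, held 107 of the higher and 328 of the lower calls (2.16% and 6.62% of the class). The middle class held 21 and 68 (0.424% and 1.37%). The most abundant class, from 46.1 CPM, held 8 and 25 of its 4958 genes (0.161% and 0.504%). Within 0.5 log2 units of equality lay 93.3% of that class. Counts of called members in the lists below are to be read beside these shares. Among the lower genes 115 had 0 counts in the rLif-treated library, and among the higher genes 48 had 0 counts in the eKO library. A rare gene that passed the filter through 1 library alone had to differ, so counts in the rarest class lean on few reads.

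**Figure D1:**
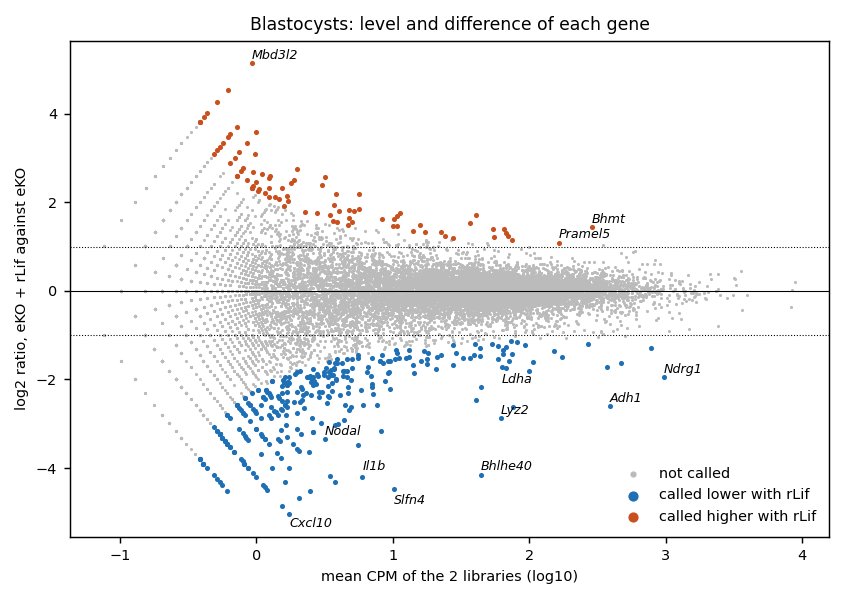
Each point is a gene with counts in both blastocyst libraries (14396 genes), with its mean CPM on the x axis (log10) and its log2 ratio of eKO with rLif against eKO on the y axis. Blue and orange points are genes called lower and higher, and dotted lines mark log2 ratios of -1 and 1. Calls below the lines outnumber those above, and the labelled *Ndrg1* and *Adh1* stand out at high level.

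Inflammatory transcripts were among the genes furthest below the eKO library. *Cxcl2*, which encodes a chemokine that attracts neutrophils (chromosome 5, 90903899 to 90905938), gave 0 reads in the control pool, 131 in the eKO pool and 0 in the rLif-treated pool. It was at least 43.4-fold lower with rLif, counting the empty library as 3 counts. *Il1b*, the cytokine interleukin 1 beta (chromosome 2, 129364580 to 129371120), had 32, 222 and 12 counts in the same order, a log2 ratio of -4.20 (interval -5.18 to -3.37). In both genes the eKO library was the high one. *Tnf*, the tumor necrosis factor gene, had 0, 42 and 0 counts and was at least 13.9-fold lower. *Cxcl10*, a chemokine induced by interferon, had 2, 66 and 2 counts, a log2 ratio of -5.04 (interval -8.11 to -3.13). *Tnfaip3*, which encodes an inhibitor of NF-kB signaling, had 36, 92 and 4 counts (log2 ratio -4.52). *Cxcl2*, *Tnf* and *Cxcl10* had under 10 counts in control and rLif-treated blastocysts together. They passed the filter through the eKO library, so their low counts in the other libraries were fixed in advance. *Il1b* and *Tnfaip3* did not depend on that library to pass, and for both the order was eKO, control, rLif-treated from high to low.

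*Slfn4*, a Schlafen gene of myeloid cells (chromosome 11, 83175186 to 83190216), had 7, 379 and 17 counts, a log2 ratio of -4.47 (interval -5.27 to -3.77). Schlafen genes are close copies of each other, and the authors' counting may have split their reads. *Bhlhe40*, a transcriptional repressor of the circadian clock and the hypoxia response (chromosome 6, 108660629 to 108666925), gave 558, 1639 and 92 reads. The log2 ratio was -4.15 (interval -4.47 to -3.84), and the rLif-treated library lay below control as well. Exons of *Bhlhe40* overlap those of 0610040F04Rik, so that some reads may belong to either gene.

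The other genes of this group had fewer reads. *Chrna4*, a subunit of the nicotinic acetylcholine receptor, had 7, 51 and 0 counts. *Samsn1*, an adaptor of lymphocyte signaling, had 13, 39 and 0, and the integrin subunit *Itga9* had 10, 35 and 0. Each of these 3 genes was at least 11.6-fold lower with rLif. *Chrna4* had under 10 counts in control and rLif-treated blastocysts together. It passed the filter through the eKO library and had to differ. *Lims2*, which encodes a protein of focal adhesions, had 64, 140 and 7 counts, and the manganese exporter gene *Slc30a10* had 34, 128 and 7. Both overlap exons of another gene (*Gpr17* and Gm2061) and are uncertain for that reason.

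Families related to these genes were collected by symbol after the values had been seen. Of 38 chemokine ligand genes, 20 were tested, 7 were called lower and 0 higher, and the median log2 ratio was -0.99, or -0.82 with genes at 0 counts set to 3. Of the 20, 19 were in the rarest class, in which 6.62% of all genes were called lower, against 2.83% over all classes. *Cxcl2*, *Cxcl10* and *Ccl2* had under 10 counts in control and rLif-treated blastocysts together, so they passed the filter through the eKO library and had to differ. Besides *Cxcl2* and *Cxcl10* the lower ones included *Ccl2* (0, 27 and 0 counts), *Ccl3* (10, 60 and 3) and *Ccl4* (12, 57 and 7). *Cxcl16* had 208, 288 and 32 counts, and its exons overlap those of *Zmynd15*. The guanylate-binding protein genes had 2 of 8 tested members lower, *Gbp2* (7, 58 and 2) and *Gbp5* (7, 53 and 5). Their sequences are similar to each other, which leaves the division of reads uncertain. *Gbp2* passed the filter through the eKO library and had to differ. The 6 Schlafen genes tested had 2 lower, *Slfn4* and *Slfn5* (0, 26 and 0 counts, with exons shared with 1700003F17Rik). *Slfn5* too passed the filter through the eKO library and had to differ. Over all tested genes 2.83% were called lower, and these few calls are no result about the guanylate-binding or Schlafen families.

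Of 22 interferon-stimulated genes 21 were tested, 7 were called lower, 0 higher, and the median log2 ratio was -0.79. Of the 21, 14 were in the rarest class, in which 6.62% of all genes were called lower, against 2.83% over all classes. Of the 7 called, 4 (*Ifit2*, *Oasl1*, *Cxcl10* and *Gbp2*) passed the filter through the eKO library and had to differ. *Isg15*, a ubiquitin-like modifier, had 20, 66 and 6 counts. *Ifit1*, which binds viral RNA, had 15, 91 and 10. *Rsad2*, an antiviral enzyme, had 140, 150 and 33 counts, close in control and eKO and lower with rLif. *Ifit2* (0, 22 and 0 counts) and *Oasl1* (0, 16 and 0) were seen in the eKO library alone among the blastocysts. The members with the most reads were not called. *Irf9*, a transcription factor of the interferon response, had 241, 321 and 305 counts, and the membrane protein gene *Ifitm3* had 194, 326 and 188.

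Leukocyte markers were mostly lower with rLif as well. Of 16 leukocyte markers 14 were tested, 12 had ratios below 0, 4 were called lower and 0 higher, with a median log2 ratio of -1.01. Of the 14, 11 were in the rarest class, in which 6.62% of all genes were called lower, against 2.83% over all classes. The summed level of the leukocyte markers was 85.7 CPM in control, 153 in eKO and 41.2 in rLif-treated blastocysts. Without *Lyz2*, at 51.2, 109 and 14.9 CPM, the sum was 34.5, 43.8 and 26.3 CPM. *Lyz2*, the lysozyme of macrophages (chromosome 10, 117277541 to 117282272), had 976, 2128 and 289 counts, a log2 ratio of -2.87. *Csf1r*, the macrophage growth factor receptor, had 31, 68 and 10 counts. *Itgam* (48, 101 and 33) and *S100a8* (6, 33 and 7), markers of myeloid cells, were also lower. *Cd14*, a receptor for bacterial lipopolysaccharide, had 30, 196 and 111 counts and was not called. *Ptprc*, the pan-leukocyte marker CD45, had 26, 41 and 19 counts. Complement genes of macrophages, singled out after their values were seen, gave the same order, with *C1qb* at 100, 163 and 25 counts and *C1qc* at 62, 140 and 40. A part of maternal leukocytes in the inflammatory transcripts was not tested. In pooled embryos, fewer cells of a type and less RNA per cell cannot be told apart.

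Uterine transcripts were present at low levels. Of 24 luminal epithelium markers 20 were tested, 11 of them in the rarest class, in which 6.62% of all genes were called lower (2.83% over all classes). Of these markers 4 were lower and 0 higher, and the median log2 ratio was -0.71. Their summed level was 958, 899 and 713 CPM in control, eKO and rLif-treated blastocysts, against 20399, 13550 and 19348 CPM in the luminal layer. *Calb1*, which encodes a calcium-binding protein, had 49, 201 and 18 counts in blastocysts and 13579, 175456 and 30828 in the luminal layer. *Lcn2*, an iron-binding secreted protein gene, had 0, 64 and 13 counts in blastocysts and 4200, 110 and 8824 in the luminal layer. The eKO library was thus the high one for *Calb1* in both tissues and, for *Lcn2*, high in blastocysts and low in the luminal layer. The retinoic acid-degrading enzyme gene *Cyp26a1* had 52, 47 and 9 counts, and 8430408G22Rik had 27, 10 and 0. *Wnt7a* was at 0 in all 3 blastocyst libraries. Among uterine gland genes 6 were tested and 1 was lower, *Sult1d1* (22, 37 and 5 counts), and the median was -1.22. With 4 of the 6 in the rarest class, 1 call is no result about the list. A part of uterine cells in the blastocyst differences was not tested. Without the genes that had at least 10 times more CPM in the luminal control library than in control blastocysts, an alternative chosen after seeing the data from libraries outside the ratio, 396 genes remained called, 113 higher and 283 lower. The control blastocyst library entered the count filter, so this alternative is not free of selection.

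**Figure D2:**
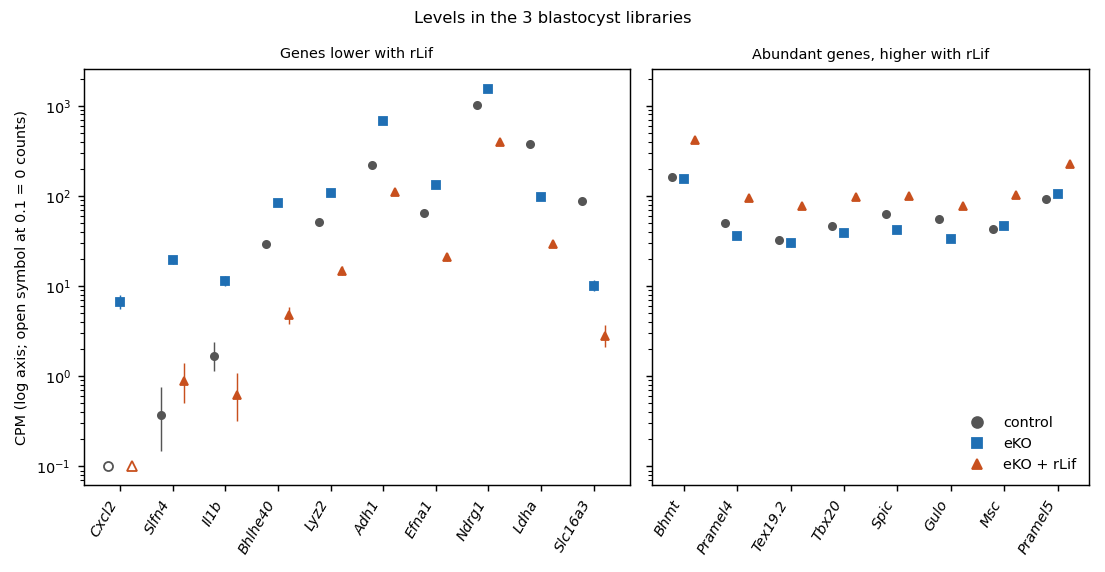
Points show CPM (log axis) in control, eKO and rLif-treated eKO blastocysts, 1 library each, with exact 95% Poisson intervals, and open symbols at 0.1 stand for 0 counts. For the 10 genes on the left the rLif-treated library lies below eKO, and for *Ldha* and *Slc16a3* control is highest. For the 8 abundant genes on the right the rLif-treated library lies above both others.

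In the most abundant class 25 genes were called lower with rLif (0.504%), and those with the interval bound furthest from 0 had diverse roles. *Adh1*, an alcohol dehydrogenase that also oxidizes retinol (chromosome 3, 138277645 to 138290691), had 4242, 13106 and 2138 counts, a log2 ratio of -2.61 (interval -2.67 to -2.54). *Ndrg1*, a gene induced by hypoxia and stress (chromosome 15, 66929318 to 66969641), had 19257, 30189 and 7787 counts, a log2 ratio of -1.95 (interval -1.98 to -1.91). *Efna1*, which encodes the ligand ephrin A1, had 1223, 2567 and 412 counts, a log2 ratio of -2.63. For all 3 genes eKO was highest and the rLif-treated library was below control. The carnitine transporter gene *Slc22a5* had 6414, 11214 and 3377 counts, and *Tmem86a*, a lysoplasmalogenase gene, had 2185, 3009 and 850. The amino acid carrier gene *Slc7a8* followed another order, with 4195 counts in control, 2046 in eKO and 612 with rLif. Further abundant genes singled out after their values were seen were BC051665 (22919, 21729 and 8782 counts), the iron exporter gene *Slc40a1* (5173, 4971 and 1762) and the nucleotide-cleaving enzyme gene *Entpd1* (6906, 7375 and 3192). Carriers of glucose, lactate and amino acids (the Slc2, Slc16 and Slc7 families), grouped by symbol after the values had been seen, gave 33 tested, 4 lower, 1 higher and a median log2 ratio of -0.18. Over all genes 2.83% were called lower and 0.914% higher.

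Glycolysis and hypoxia genes had a median log2 ratio of -0.56, against -0.01 over all genes. Of 23 tested members 3 were called lower and 0 higher, and 18 had ratios below 0. Over all genes 2.83% were called lower, and 2 of the 23 were in the rarest class. *Ldha*, the lactate dehydrogenase subunit that makes lactate (chromosome 7, 46845804 to 46855627), had 7174, 1888 and 567 counts, a log2 ratio of -1.73 (interval -1.87 to -1.59). *Slc16a3*, the lactate exporter (chromosome 11, 120948484 to 120959000), had 1668, 198 and 55 counts, a log2 ratio of -1.84. Both genes were already lower in eKO than in control, and the rLif-treated library was lower still. *Vegfa*, a growth factor for blood vessels, gave 425, 608 and 214 reads, which is -1.50 on the log2 scale. The main glucose transporter gene of the list by reads, *Slc2a3*, had 34498, 37261 and 20521 counts, a log2 ratio of -0.85 that was not called. *Slc2a1* had 6133, 2286 and 1648 counts. *Pkm* (17894, 14419 and 13244), *Aldoa* (15398, 13338 and 13997) and *Bnip3* (8534, 8486 and 8916) were close to equal between eKO and rLif-treated blastocysts. The hypoxia core marked in the *Ldha* window was found before 11 of 22 genes of this list with a matched start (50%).

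Genes higher with rLif were fewer. In the most abundant class *Bhmt*, which remethylates homocysteine with betaine (chromosome 13, 93616891 to 93637758), had 3082 counts in control, 3031 in eKO and 8129 with rLif, a log2 ratio of 1.43 (interval 1.37 to 1.49). *Pramel4* (chromosome 4, 144059126 to 144069318) had 953, 707 and 1847 counts, and *Pramel5* (chromosome 4, 144270633 to 144280466) had 1754, 2068 and 4378. Both belong to the Prame-like family of the early embryo. *Tex19.2*, a germline gene, had 625, 580 and 1514 counts. For these 4 genes control and eKO were close, and the rLif-treated library stood above both. The transcription factor genes *Tbx20* (877, 761 and 1872) and *Msc* (821, 909 and 2002) were also highest with rLif. The transcription factor gene *Spic* (1198, 821 and 1917) and *Gulo* (1053, 648 and 1497), which encodes the last enzyme of vitamin C synthesis, had control above eKO and below the rLif-treated library. The 8 log2 ratios ranged from 1.09 in *Pramel5* to 1.43 in *Bhmt*.

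Of the 10 Prame-like genes, grouped by symbol after the values had been seen, 9 were tested, 2 were higher and 0 lower, and the median log2 ratio was 0.85. Over all tested genes 0.914% were called higher. The 2 called were *Pramel4* and *Pramel5*, already known when the family was grouped, so their calls are no result about the family. *Pramel6* had 11463, 11190 and 17053 counts (log2 ratio 0.62) and *Pramel7* had 10843, 12618 and 12006 (log2 ratio -0.06). The members are near copies, so reads may have been divided among them. *Trim43b*, also singled out after its values were seen, had 142, 101 and 340 counts, and its relative *Trim43a* had 8320, 7943 and 14430. The 16 two-cell stage genes gave 8 tested, 1 higher (*Tdpoz4*, with 2, 0 and 10 counts) and 0 lower. *Tdpoz4* passed the filter through the rLif-treated library and had to differ, so its call is no result about the list. The hallmark two-cell genes *Zscan4c*, *Zscan4d* and *Zfp352* were at 0 in all 3 libraries.

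The genes with the largest ratios in the upward direction were rare. *Mag*, a myelin glycoprotein gene, had 14, 0 and 36 counts and was at least 12.1-fold higher. *Gdf9*, a growth factor gene of the oocyte, had 12, 0 and 32 counts and was at least 10.7-fold higher. *Mbd3l2* had 12, 1 and 35 counts, a log2 ratio of 5.14 with an interval of 2.56 to 10.48. In all 3 of these genes control lay between eKO and rLif-treated blastocysts. *Kif5c*, a kinesin gene, had 8, 0 and 24 counts. Gm4951 (6, 0 and 24), *Cd3d* (5, 0 and 18), *Spag16* (8, 0 and 17), *Zscan2* (2, 0 and 17), *Vcan* (18, 0 and 16), *Dleu7* (10, 0 and 16), *Onecut2* (5, 0 and 16) and *Wbp2nl* (14, 3 and 36) completed the 12. The highest count of any of these 12 genes in the 3 libraries was 36. *Kif5c*, Gm4951, *Cd3d*, *Spag16*, *Zscan2* and *Onecut2* had under 10 counts in control and eKO blastocysts together. They passed the filter through the rLif-treated library and had to differ. *Gdf9* was the 1 gene called among 8 tested oocyte genes, and the egg coat gene *Zp3* had 53, 43 and 58 counts. With 7 of the 8 in the rarest class, 1 call is no result about the oocyte list.

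The Lif pathway itself showed no called gene in blastocysts, with 24 of 28 members tested and a median log2 ratio of -0.12. *Lif* had 1447, 1736 and 1250 counts in control, eKO and rLif-treated blastocysts, a log2 ratio of -0.47. The blastocysts are not the tissue of the deletion, so these reads do not check the knockout. In the luminal layer *Lif* had 0, 28 and 0 counts, which goes against the label of the eKO library, and directions drawn from that layer rest on the labels. *Lifr* in blastocysts (chromosome 15, 7129572 to 7197489) had 778, 1130 and 521 counts, a log2 ratio of -1.11 whose interval (-1.26 to -0.96) reached inside the limit. *Il6st* had 998, 1296 and 1051 counts and *Stat3* had 3699, 4651 and 4870. *Jak1* had 3037, 3500 and 2895, with exons shared with *Raver2*.

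Stat3 targets differed little between the blastocyst libraries, whereas many were higher with rLif in the luminal layer. Of 29 tested targets and feedback genes, 0 were higher and 1 lower (*Vegfa*) in blastocysts, with a median log2 ratio of -0.11. In the luminal layer 16 of 29 were higher and 1 lower in the library labelled eKO with rLif, with a median of 1.24. Over all genes of that layer 7.88% were called higher and 7.77% lower. *Socs3* had 4031, 5440 and 3248 counts in blastocysts, a log2 ratio of -0.74 (interval -0.80 to -0.67). The same gene had 1482, 153 and 4242 counts in the luminal layer, a log2 ratio of 4.93. *Bcl3*, a regulator of NF-kB, had 995, 811 and 859 counts in blastocysts and 1485, 122 and 3336 in the luminal layer. *Socs1*, a related feedback inhibitor, was higher with rLif in blastocysts but not called, with 1223, 1437 and 2500 counts (log2 ratio 0.81). The abundant targets *Klf5* (24187, 27308 and 26963) and *Tfcp2l1* (13464, 16098 and 14665), transcription factors of the early embryo, were nearly equal. The Stat form marked in the *Socs3* window was found before 3 of the 24 list members with a matched start (12.5%).

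**Figure D3:**
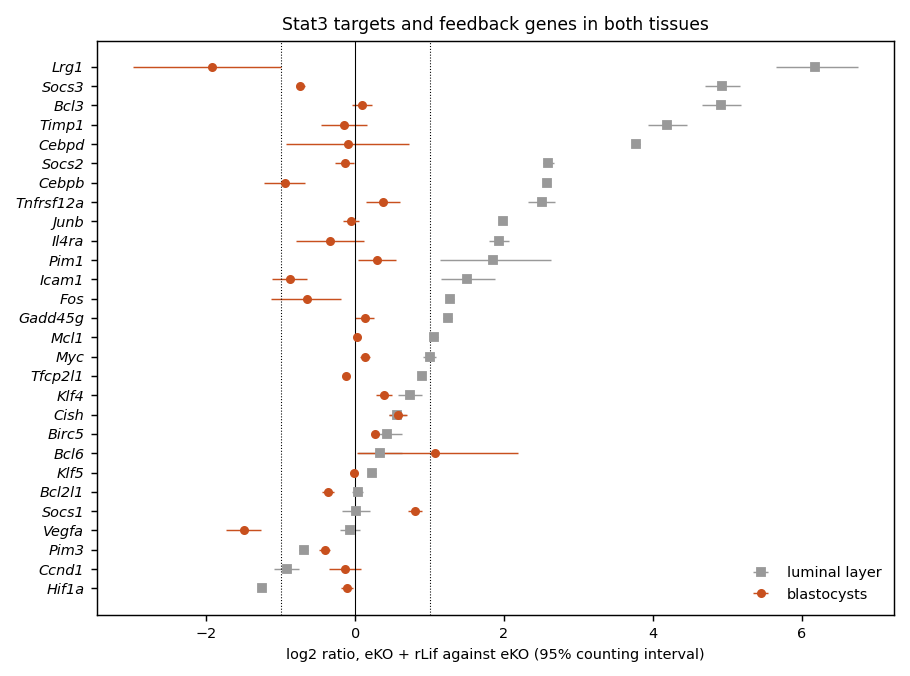
Log2 ratios of eKO with rLif against eKO for 28 Stat3 targets and feedback genes with counts in the libraries compared, in blastocysts (orange) and the luminal layer (grey), 1 library per group, with exact 95% counting intervals. Dotted lines mark log2 ratios of -1 and 1. Luminal ratios reach 6.18 in *Lrg1*, while blastocyst ratios stay between -1.93 in that gene and 1.07 in *Bcl6*.

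Of 27 pluripotency genes, all tested, 0 were called higher and 3 lower with rLif, 18 had ratios above 0 and 9 below, and the median log2 ratio was 0.16. The share called lower over all genes was 2.83%, and 1 of the 27 was in the rarest class. *Nanog*, a core factor of the epiblast, had 2281, 2094 and 3512 counts, a log2 ratio of 0.75. *Dppa2* (7060, 7484 and 12573) and *Dppa3* (12753, 12366 and 19867) had log2 ratios of 0.76 and 0.69. *Pou5f1* had 5810, 6172 and 8033 counts. The abundant *Dppa5a* (33911, 37599 and 36256) and *Sall4* (13705, 15661 and 17087) differed little. *Nodal*, a ligand of the TGF-beta family (chromosome 10, 61417972 to 61425337), had 94, 113 and 11 counts, a log2 ratio of -3.35 (interval -4.40 to -2.46). Its target and inhibitor *Lefty1* had 192, 135 and 46 counts, and the nuclear receptor gene *Nr0b1* had 179, 272 and 91. *Lefty2* had 361, 705 and 491 counts and was not called.

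Trophectoderm genes had a median log2 ratio of -0.36, with 27 tested, 2 called lower, 0 higher and 21 below 0. The share called lower over all genes was 2.83%, and 2 of the 27 were in the rarest class. *Plac1*, an X-linked placental gene (chromosome X, 53070002 to 53114405), had 3488, 2092 and 699 counts, a log2 ratio of -1.57. *Ets2*, a transcription factor of trophoblast, had 2007, 1453 and 633 counts. For both the order was control, eKO, rLif-treated from high to low. *Krt19* (1401, 241 and 108) and *Ascl2* (335, 53 and 15) had the same order but their intervals reached inside the limit. The factors that define the lineage, *Cdx2* (11832, 16038 and 18477), *Eomes* (12879, 12591 and 12584) and *Gata3* (19242, 24188 and 22656), and the keratins *Krt8* (43414, 46083 and 45421) and *Krt18* (36189, 40022 and 35554) were at high counts in all 3 pools.

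Primitive endoderm genes had a median of -0.58, with 27 tested, 3 lower, 0 higher and 19 below 0. Of all tested genes 2.83% were called lower, and 3 of the 27 were in the rarest class. *Lama1*, a laminin chain of the basement membrane, had 3274, 4250 and 1658 counts (log2 ratio -1.35). The transcription factor gene *Sox7* had 434, 323 and 113, and the proteoglycan gene *Srgn* had 679, 477 and 185. *Apoe*, which encodes a lipid carrier, had 6507, 8468 and 4075 counts, and *Serpinh1*, the collagen chaperone, had 11452, 10404 and 5530, and neither was called. Some early regulators of this lineage did not follow the median, since *Gata6* had 3454, 3547 and 5388 counts (log2 ratio 0.61) and *Sox17* had 2081, 2233 and 2531. The endocytic receptor gene *Lrp2* was also above eKO, with 3929, 3825 and 6016. Laminin and type IV collagen chains, grouped after the values had been seen, gave 12 tested, 2 lower and a median of -0.63, and 2 calls among 12 genes are few. *Lamb1* had 5017, 5519 and 3290 counts and *Lamc1* 7516, 9509 and 5606.

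**Figure D4:**
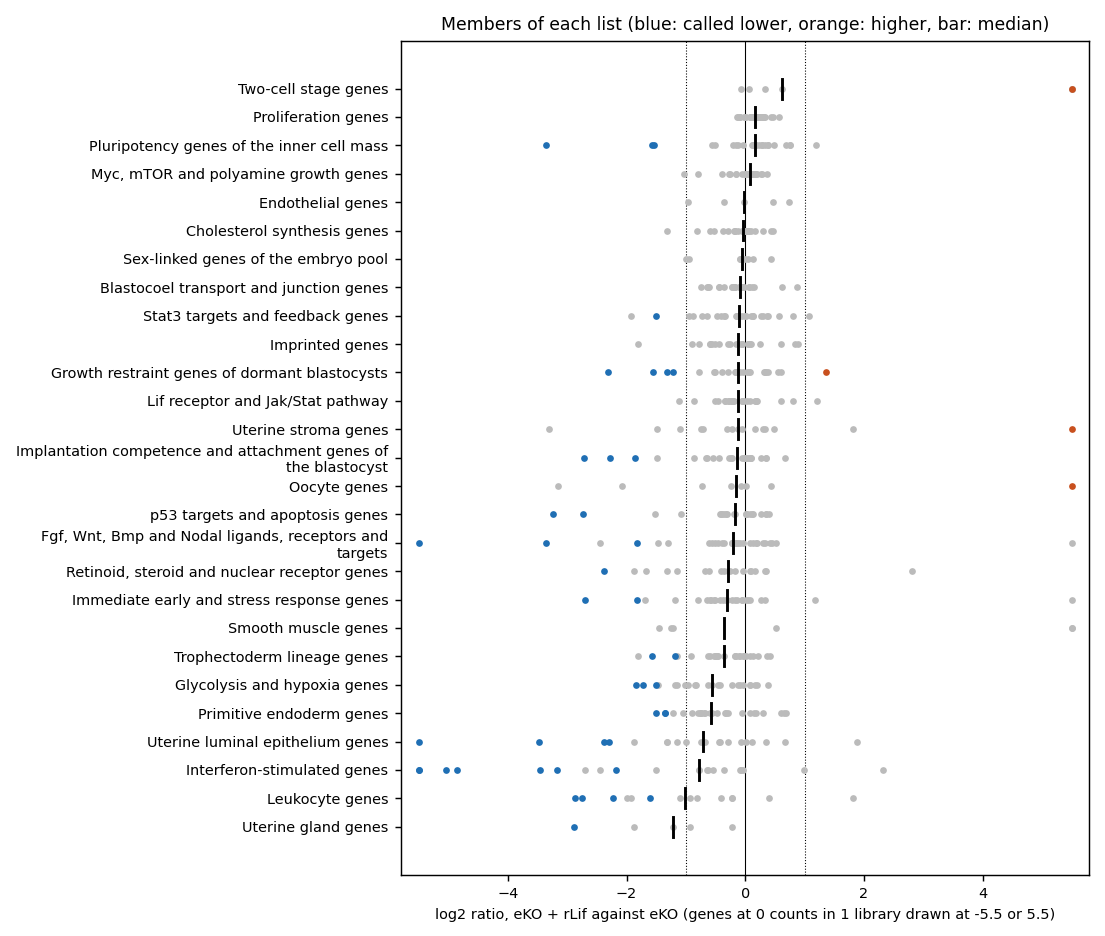
Log2 ratios of eKO with rLif against eKO in blastocysts for the tested members of 27 gene lists, ordered by list median (black bar). Blue points are called lower and orange points called higher, and genes with 0 counts in 1 library are drawn at -5.5 or 5.5. The medians run from -1.22 in gland genes to 0.62 in two-cell stage genes.

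Genes tied to implantation competence and attachment gave 24 tested, 3 lower, 0 higher and a median of -0.14. Of the 24, 6 were in the rarest class, in which 6.62% of all genes were called lower, against 2.83% over all classes. *Itgb3*, the beta3 integrin subunit (chromosome 11, 104608000 to 104670471), had 1026, 93 and 19 counts, a log2 ratio of -2.28 (interval -3.08 to -1.56). *Egfr*, the receptor of epidermal growth factor, had 117, 33 and 5 counts. Both genes were already lower in eKO than in control, by log2 ratios of -3.50 in *Itgb3* and -1.86 in *Egfr*. *Hbegf*, a ligand of that receptor, had 202, 283 and 78 counts (log2 ratio -1.85). *Spp1*, an adhesion protein bound by integrins, had 20635, 22105 and 21863 counts, and *Cdh1*, the epithelial cadherin, had 18684, 22279 and 18948. Among integrin subunits, grouped after the values had been seen, 21 were tested and 5 were lower, including *Itga9*, *Itgb3* and *Itgam* above. These 3 subunits were in the rarest class.

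Growth restraint genes of dormant blastocysts moved in both directions. Of 24 members 4 were lower and 1 higher, and the median was -0.12. Over all tested genes 2.83% were called lower and 0.914% higher. In the rarest class, which held 6 of the 24, 6.62% of all genes were called lower. *Btg1*, an antiproliferative gene, had 1719, 2532 and 1088 counts, and *Ccng2*, a cyclin of growth arrest, had 1246, 1720 and 585 (log2 ratio -1.55). *Ddit4*, an inhibitor of mTOR, had 179, 295 and 117 counts. *Txnip*, an inhibitor of glucose uptake, had 110, 75 and 15, with exons shared with Gm15441. *Foxo3*, a transcription factor of quiescence and stress resistance, was the member called higher, with 141, 155 and 396 counts (log2 ratio 1.36). The autophagy genes *Map1lc3b* (23294, 25171 and 32006) and *Ulk1* (5598, 5828 and 7572) were above eKO by log2 ratios of 0.35 and 0.39 without a call.

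Proliferation genes and growth genes were close to equal. Among 28 proliferation genes 0 were called, 22 had ratios above 0 and the median was 0.17. *Aurka*, a mitotic kinase, had 7669, 7839 and 10730 counts (log2 ratio 0.46), and *Rrm2*, a subunit of ribonucleotide reductase, had 12437, 12433 and 15157. Of 24 Myc, mTOR and polyamine genes 0 were called and the median was 0.09. *Myc* had 4756, 2961 and 3227 counts, and *Odc1*, the first enzyme of polyamine synthesis, had 12724, 12032 and 14599.

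Among the signaling lists, 31 Fgf, Wnt, Bmp and Nodal genes gave 3 lower, 0 higher and a median of -0.20. Of the 31, 8 were in the rarest class, in which 6.62% of all genes were called lower, against 2.83% over all classes. Besides *Nodal* the lower genes were *Wnt11*, a Wnt ligand (164, 131 and 37 counts), and *Lef1*, a transcription factor of Wnt signaling (93, 20 and 0). The receptor gene *Fgfr2* had 8444, 10864 and 7591 counts. Immediate early and stress genes gave 27 tested, 10 of them in the rarest class, with 2 lower and a median of -0.31. Beside the same shares, 2 calls are no result about that list. The lower genes were the heat shock genes *Hspa1a* (46, 52 and 8 counts) and *Hspa1b* (200, 285 and 80), near-identical copies whose reads cannot be assigned with certainty. The chaperone gene *Hsph1* had 10461, 11698 and 8036 counts, and *Hspa5* had 31658, 25626 and 26307. Of 22 p53 and apoptosis genes 2 were lower, and 1 of these passed the filter through the eKO library. They were the death receptor gene *Fas* (0, 19 and 2 counts) and *Casp8* (18, 47 and 7), which encodes the protease acting after it. With 6 of the 22 in the rarest class, where 6.62% of all genes were called lower, 2 calls are no result about the list.

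Several lists held no called gene. Cholesterol synthesis genes (22 tested) had a median of -0.04, blastocoel transport and junction genes (28) of -0.08, imprinted genes (22) of -0.12 and sex-linked genes (10) of -0.06. In the junction list *Gja1*, a gap junction gene, had 13882, 14017 and 21344 counts, a log2 ratio of 0.61. The sex-linked genes included *Xist* at 2655, 2343 and 2554 counts and *Ddx3y* at 1118, 1107 and 1062. X-linked and Y-linked transcripts were thus present in all 3 pools. Retinoid, steroid and nuclear receptor genes gave 19 tested and 1 lower, *Cyp26a1*, with a median of -0.29. With 10 of the 19 in the rarest class, where 6.62% of all genes were called lower, 1 call is no result about the list. Among markers of other cells, 15 stroma genes gave 1 higher (*Thy1*, with 12, 0 and 14 counts), and 0 were called among 6 smooth muscle, 6 endothelial, 3 erythrocyte and 1 sperm gene. With 10 of the 15 stroma genes in the rarest class, 1 call is no result about that list. The summed smooth muscle level was 24.3, 21.7 and 10.9 CPM, the endothelial level 108, 117 and 159 CPM, and the stroma level 292, 285 and 255 CPM. Most of the stroma level came from *Pdgfra* (123, 146 and 140 CPM) and *Fbln1* (113, 103 and 83.3 CPM). *Pdgfra* is also in the primitive endoderm list, so this sum does not measure maternal stroma. The endothelial list rested on *Pecam1* (1222, 1306 and 1807 counts) and *Tie1* (312, 525 and 870), while *Emcn* was at 0 in all 3 libraries and *Kdr* had 27, 0 and 0 counts.

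The same contrast in the luminal layer used separate libraries. There, 13656 genes were tested in both tissues. Of the 368 genes called lower in blastocysts and tested in both, 58 (15.8%) were called higher and 41 (11.1%) lower in the luminal layer. Of the 87 called higher in blastocysts, 10 (11.5%) were higher and 15 (17.2%) lower there. Genes not called in blastocysts gave 6.70% and 6.26%. Read from the other side, 6.09% of the 952 luminal higher genes were lower and 1.05% higher in blastocysts, and of the 882 luminal lower genes 4.65% were lower and 1.70% higher.

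The share of called genes with far more signal in the luminal layer depended on which blastocyst library it was set against. At least 10 times more CPM in the luminal eKO library than in eKO blastocysts was seen for 37.5% of higher genes, 18.5% of lower genes and 9.26% of the genes not called. This share uses the eKO blastocyst counts that also made the calls, so a gene low in that library is both more easily called higher and more easily counted here. Set in control libraries of both tissues, the same limit was met by 23 higher genes (16.9%), 138 lower genes (32.8%) and 7.86% of those not called. Of the 421 lower genes, 105 had under 10 counts in control and rLif-treated blastocysts together. For them a low control level was fixed by the filter, which favors meeting this limit. Called genes were also rarer, with median CPM of 1.25 in lower, 0.836 in higher and 20.3 in other genes. Protein-coding genes made up 86.0% of the higher, 89.5% of the lower and 89.5% of the other genes. The X chromosome held 10 higher genes (7.35%), 14 lower genes (3.33%) and 3.40% of those not called. Median exon length was 2594 bases in higher, 3076 in lower and 2746 in other genes. Over all tested genes the median log2 ratio went from 0.07 in the shortest of 3 equal length classes to -0.09 in the longest.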

How the data were processed

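RNA-seq was performed by the authors on pooled blastocysts and on laser-microdissected luminal layers, 1 library per group in 6 groups. SMART-seq v4 libraries were aligned to GRCm38/mm10 with HISAT2 and counted with featureCounts (Subread 2.0.0), per the labels. The deposited tables held unnormalized counts for each gene, in whole numbers. The study's methods call this output RPKM, but the values were whole, so they were treated as counts. Settings for strand and for reads mapping to several places were not given in the sources used here.

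Total counts were 18996158, 19638852 and 19417359 in control, eKO and rLif-treated blastocysts. The 20 most abundant genes took 7.24% to 7.56% of them. TMM factors from edgeR 4.0.16 under R 4.3.3 gave the scaled library sizes. Genes with at least 10 counts over the 3 embryo libraries were kept. Ratios carry exact 95% Clopper-Pearson intervals and single CPM values exact Poisson intervals (scipy 1.17.1). With 1 library per group the spread between pools could not be estimated, so no p-value is given, and edgeR's exact test was run only with assumed dispersions. The interval calculation was tested on simulated counts, which hold no spread between pools. Where a library had 0 counts, folds are bounds against 3 counts in that library.

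Named genes were the 12 called genes per direction with the interval bound furthest from 0, the 8 such genes per direction in the most abundant class, every called member and the 2 most abundant members of each of 29 lists, and *Lif*, *Lifr*, *Il6st* and *Stat3*. Other genes and 8 families were chosen after their values were seen. The comparison, rules and lists were chosen with earlier results of these data known. Exon overlaps came from the coordinates in the deposited table and gene types from GENCODE M21. Alternatives were other scalings, count minimums, log2 limits and edgeR's exact test.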

Additional observations from a re-analysis of the deposited data

Results flagged for a closer look

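The following named genes were called in opposite directions in blastocysts and in the luminal layer under the same contrast of eKO with rLif against eKO. Each tissue had 1 library per group, so the difference between tissues was not tested.

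Lower in blastocysts and higher in the luminal layer were *Slfn4* (blastocyst log2 ratio -4.47), *Il1b* (-4.20), *Gbp2* (-4.85), *Fas* (-3.24), *Efna1* (-2.63), *Cyp26a1* (-2.38), *Lcn2* (-2.29), *Ndrg1* (-1.95), *Hbegf* (-1.85), *Slc7a8* (-1.73), *Slc22a5* (-1.72), *Lama1* (-1.35) and *Btg1* (-1.21). Among genes chosen after their values were seen, the same held for *Oas3* (-3.35), *Ccl4* (-3.02), *Oas2* (-2.69), *Csf1* (-2.35), *Kit* (-2.07) and *Jag1* (-2.05). 8430408G22Rik had 0 counts with rLif and was at least 3.31-fold lower in blastocysts, and it too was higher in the luminal layer. *Gbp2* and *Fas* passed the filter through the eKO blastocyst library, so their low counts with rLif were fixed in advance. The luminal counts of *Gbp2* were 128 in the library labelled eKO and 11675 in that labelled eKO with rLif, against 58 and 2 in blastocysts. For *Efna1* they were 866 and 9923, against 2567 and 412 in blastocysts. For *Ndrg1* they were 1433 and 9431, against 30189 and 7787.

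Higher in blastocysts and lower in the luminal layer were *Gulo* (blastocyst log2 ratio 1.22), *Gdf9* (at least 10.7-fold higher in blastocysts) and *Dleu7* (at least 5.36-fold higher). *Dleu7* had 577 and 132 luminal counts, against 0 and 16 in blastocysts.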

How the results depend on the processing

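The counts of 557 called, 136 higher and 421 lower genes stayed within 1.5 times under DESeq2 size factors (DESeq2 1.42.0), total counts without TMM, TMM over the 2 compared libraries and no count filter, and without genes whose exons overlap another gene (520 called, chosen after seeing the data). A minimum of 50 counts gave 325 called, 66 higher and 259 lower. A log2 limit of 0 gave 7832, 3751 and 4081, so that 47.9% of calls were higher against 24.4%, and a limit of 2 gave 93, 8 and 85 (8.60% higher). Without the genes with at least 10 times more CPM in the luminal eKO library than in eKO blastocysts 85 were higher, but this limit divides by the eKO blastocyst level and so removes by construction genes near 0 there. Set in the control libraries, the limit left 113 higher and 283 lower. It divides by the control blastocyst level, which entered the count filter, so it is not free of selection either. Both limits were chosen after seeing the data. edgeR's exact test (absolute log2 fold change above 1, FDR below 0.05) gave 378 called at an assumed dispersion of 0.04, with 72 higher and 306 lower. It gave 58, 5 and 53 at 0.1 (8.62% higher) and 0, 0 and 0 at 0.4. All 58 genes called at 0.1 were among the 557.

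Scalings moved the median log2 ratio by at most 0.01. They changed the call of 0 of 117 named genes with a finite ratio. Of 144 alternative list medians 3 were outside the range of their list, all for the sperm list with its 1 tested gene (-1.58 to at most -1.57), and 1 changed sign (endothelial genes, -0.03 to 0.23 with a minimum of 50 counts). The spread between pools is not known, and depth limits calls among genes with few counts. No paired analysis was possible because each group was 1 library and the comparison comes from no test.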
